A study of Mus musculus with 32 samples.

Results

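The genes described here encode the standing machinery of protein breakdown by ubiquitin and the proteasome: the subunits of the constitutive proteasome, and the enzymes that activate, conjugate and remove ubiquitin. The rule for members reads gene symbols and no intensity, although it was written with earlier results of these data known. A probe set, the group of oligonucleotides that reports 1 transcript, was a member if the platform annotation gave it a single symbol starting with Psma, Psmb, Psmc, Psmd or Ube2, with Usp or Uba and a digit, or with Uch. Psmb8, Psmb9 and Psmb10 of the immunoproteasome and Ube2c were left out. This gave 83 probe sets of 64 genes, out of 13179 probe sets and 6137 singly named genes in all, 66 on array design a and 17 on array design b.

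The series followed UB/OC-1, a mouse cell line, from day 0 at 33 °C, undifferentiated by its label, through days at 39 °C. As background, UB/OC-1 is a conditionally immortal line from the embryonic organ of Corti, in which a temperature-sensitive viral T antigen keeps the cells dividing at the lower temperature and loses its function at the higher one. It is 1 line, so the results describe these cells and not the tissue, and day 0 differs from every later day in temperature as well as in time. The sources used here give neither the medium nor any added factor. Experiment A had 12 sampled days (0 to 9, 11 and 14) and experiment B had 4 (0, 2, 4 and 9), each with 1 array of each design. Each sampled day of an experiment is called a culture here, whether or not it was grown apart. The 16 cultures were grouped by day: 2 at day 0, 4 early ones from days 1 to 3, 5 in the middle from days 4 to 7, and 5 late ones from days 8 to 14. The labels do not say which days of an experiment were grown separately. The p-values therefore measure the spread between these samples, change within a phase included.

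In the ubiquitin pathway an activating enzyme (E1) charges ubiquitin, a conjugating enzyme (E2) carries it, and a ligase attaches it to a target protein. The proteasome that degrades such proteins has a barrel-shaped 20S core, whose outer alpha rings (Psma) gate the entry and whose inner beta rings (Psmb) hold the proteolytic sites. A 19S cap sits on its ends, with a ring of ATPases (Psmc) that unfold substrates and other subunits (Psmd) that bind and strip ubiquitin. Deubiquitinases of the Usp and Uch families cut ubiquitin from its targets, and 2 of them, Usp14 and Uchl5, work bound to the 19S cap. Many regulators of the cell cycle are removed through this pathway.

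Proteasome genes are known to be raised together by the factor Nfe2l1, and some also by Nfe2l2, through antioxidant response elements. The core letters of this element, TGACNNNGC on either strand, were looked up in windows from 250 bases before to 50 bases after each gene's start in RefSeq (GRCm38.p6). Genes are called subunits here by a Psma, Psmb, Psmc or Psmd symbol, Psmc3ip aside, and not by their place in the assembled proteasome. Of 30 such genes 24 had a window, and 4 of those (16.7%) held the letters, against 3781 of 27025 genes in the table (14.0%). Among the 33 enzyme genes 22 had a window and 4 held them (18.2%). Of the 12 genes that fell late against day 0 (below), 10 had a window, and those of Psmd12 and Uchl5 held the letters. Their matches are shown with those of 2 other genes with Psmb and Psmd symbols for comparison. All are on the strand of the gene, with the 9 matching letters in capitals and neighbouring bases in lower case. The match of Psmd12 lies on the opposite strand, at chr11:107479278-107479299, more than 200 bases before the start, whereas that of Uchl5, at chr1:143777234-143777262, is close to it. Those of Psmb6 (chr11:70525338-70525366) and Psmd9 (chr5:123228149-123228177) also lie near the start. The match of Psmc6, the remaining subunit gene with the letters, is not shown. It lies on the opposite strand, 227 to 219 bases before the start. Such a match is a description of the sequence and not a measured binding site.
Uchl5: gcgcggcaggTGACGGCGCccggaggctg
Psmd12: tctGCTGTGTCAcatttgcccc
Psmb6: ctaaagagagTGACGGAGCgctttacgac
Psmd9: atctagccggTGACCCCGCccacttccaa

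The deposited values are scaled array intensities with many values below 0, so each was raised to a floor (141 on design a, 198 on design b) before log2 was taken. The authors' scaling set the trimmed means of all arrays to between 300.4 and 300.8. Experiment B had the lower maxima, 8161 to 13801 against 16939 to 63467 in A. Of the 83 member probe sets, 70 exceeded this floor on 2 or more arrays and were tested, and 61 of them, for 47 genes, had a mean above it. Another 10 were at the floor on all 16 arrays, among them those of Psmc2 and Psmc6. The labelled cell type was only partly visible. Of 12 listed cochlear genes 6 were on the arrays and 4 had a mean above the floor. Myo7a was above it on 15 of 16 arrays, while Sox2 and Atoh1 were at the floor on every array. Gata3 passed as higher late against day 0 (adjusted p = 0.0311 in limma), the 1 call among 6 tested cochlear probe sets. A mean above the floor does not single out this cell type, since all 4 listed skeletal muscle genes had one. Markers of dividing cells, of which 3 of 4 were on the arrays, summed to 3605 to 3699 at day 0, 868 to 2125 early and 788 to 1049 late. All 4 of their tested probe sets passed as lower late, and 3 early. Of the fibroblast markers, 1 of 6 tested probe sets passed, that of Dcn, which was at the floor on both day 0 arrays and had a mean of 14300 late; it carried the list's sum from 663 to 1689 at day 0 to 6054 to 24525 late. Of the neuron markers a single probe set was tested, that of Tubb3, which fell 3.72-fold late (adjusted p = 0.00171 in limma). No macrophage, endothelial or skeletal muscle marker passed. The part of the dividing-cell markers, of Dcn and of Tubb3 in the results below was not tested. In bulk RNA such as this, fewer cells of a type and less RNA per cell cannot be told apart. Day 6 of experiment A stood apart by the Gapdh control, with a ratio of its 3′ to its 5′ probe set of 2.65 and 2.56 on the designs, against 0.759 to 1.67 elsewhere.

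Late in the time course, proteasome subunits were lower than at day 0 and a single E2, Ube2h, was higher. In limma fits over all 7726 tested probe sets, 16 of the 70 tested members passed an adjusted p of 0.05 late against day 0, 14 of them lower and 2 higher. Over all tested probe sets 6.08% passed as lower and 4.84% as higher. The 14 lower probe sets belong to 12 genes, the proteasome subunits Psma3, Psma5, Psma7, Psmb2, Psmb3, Psmc4, Psmd6, Psmd8, Psmd12 and Psmd14 and the cap's deubiquitinases Uchl5 and Usp14. Early against day 0, 5 members passed, the 2 probe sets of Ube2h as higher and those of Psmd12, Uchl5 and Usp14 as lower, against 1.45% of all tested probe sets higher and 2.05% lower. Many of these calls need the day 0 arrays of experiment B: without them the late count was 4 and the early count 1, while without day 0 of experiment A they were 16 and 7. The late calls of the 10 subunit genes ended without day 0 of B (adjusted p from 0.0989 to 0.456 in limma for the probe sets named below), with the direction unchanged, and those of Uchl5, Usp14 and the Ube2h probe set aa396357_s_at held.

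The proteasome subunits of each class lay below day 0. Among the 34 subunit probe sets (26 genes) with a mean above the floor, 33 were lower late than at day 0, with a median log2 change of -0.91. All 5721 probe sets with such a mean had a median of 0.21, and 2206 of them were lower. Early, 32 of the 34 and 2328 of the 5721 were lower, with medians of -0.67 and 0.11. The late medians were -1.01 for the alpha ring (9 probe sets), -0.77 for the beta ring (8), -1.01 for the ATPases (3) and -0.83 for the other cap subunits (14). The late median was -0.71 in experiment A and -0.91 in experiment B, each against its own day 0, and the early ones were -0.47 and -0.68. The enzymes had no such shift, with a late median of 0.10 over 25 probe sets.

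**Figure D1:**
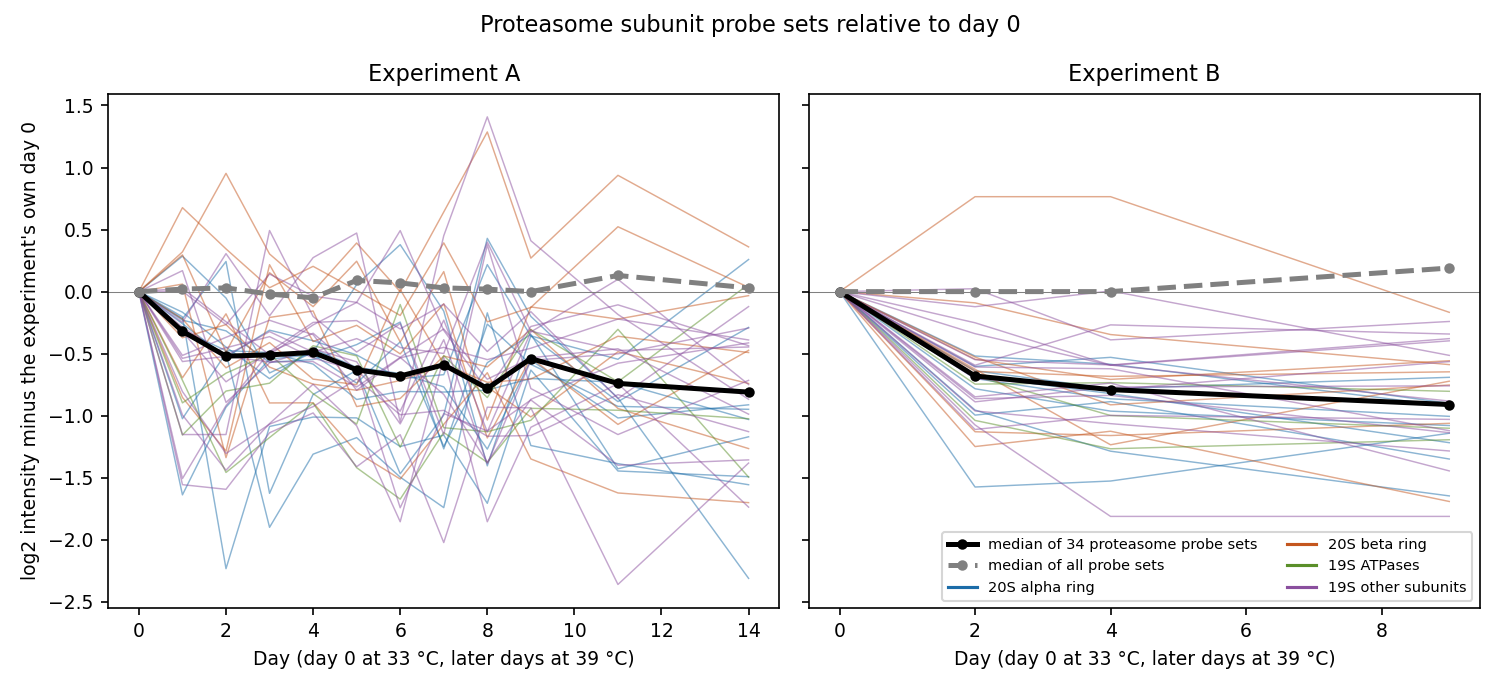
Log2 intensity of each of 34 proteasome subunit probe sets minus the day 0 value of the same experiment (y axis) against day (x axis), for experiment A and experiment B. Thin lines are probe sets coloured by class, the black line is their median and the dashed grey line is the median of all probe sets. The black line falls to -0.52 by day 2 in A and -0.68 in B and ends at -0.81 and -0.91, while the grey line stays between -0.05 and 0.19.

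Day by day, most subunits were below day 0 from the first day sampled in each experiment. In experiment A the median subunit was at 0.802 of its day 0 intensity on day 1, at 0.698 on day 2, between 0.623 and 0.713 on days 3 to 7 and between 0.571 and 0.686 on days 8 to 14. In experiment B it was at 0.624 on day 2, 0.580 on day 4 and 0.531 on day 9, when all 34 probe sets were below their day 0. On that day 1990 of the 5721 probe sets with a mean above the floor were below it. The experiments have separate day 0 arrays, so they can be set side by side: 29 of 34 subunit probe sets were lower in both on day 2, 30 on day 4 and 32 (94.1%) on day 9. Of all probe sets with a mean above the floor, 25.5% were lower in both on day 2, 28.4% on day 4 and 24.4% on day 9. Within an experiment these days share 1 day 0 array of each design, so they are not separate comparisons. Cultures of the same day differed between experiments by a median of 0.33 log2 for the subunits and 0.40 for the 61 members.

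Between early and late days no member passed the test in limma (0 of 70, against 0.984% of all tested probe sets). At an unadjusted p under 0.05, 5 members (7.14%) passed, compared with 773 of all 7726 tested probe sets. The subunits' median late minus early was -0.16, compared with 0.08 for all probe sets. A limma spline test over all days called 12 members (17.1%) against 9.73% of all tested probe sets. It passed Psma3, Psma4, Psma5, Psmb2, Psmb3, Psmc4, both probe sets of Ube2h and of Uchl5, Usp14, and Usp25.

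In the alpha ring, 3 of 9 probe sets fell late and none passed early. Psma7, an alpha subunit, had 1302 and 2107 at day 0 in A and B, and on late days 399, 840, 478 and 463 in A (days 8, 9, 11 and 14) and 673 in B. Every late array was below both day 0 arrays, with a fold of 3.02 (log2 change -1.59, SE 0.45, limma adjusted p = 0.0259). Psma5 read 1914 and 2474 at day 0, 794, 1305, 945 and 1017 on the late days of A and 971 in B, again without overlap. It was 2.19-fold lower (adjusted p = 0.00449 in limma). Psma3 fell 1.99-fold on 1 of its probe sets (adjusted p = 0.00892 in limma), from 1763 and 2457 at day 0 to 1017, 1085, 1063 and 863 in A and 1224 in B. Its second probe set was 0.93 log2 lower and did not pass. The probe sets of Psma3 and Psma5 are of a kind shared by related transcripts, so the gene they report is uncertain. Psma4, at 1469 and 4558 at day 0 and 296 to 2066 late, spread widely (SE 0.65 log2) and did not pass late against day 0 (adjusted p = 0.246 in limma). With experiment as a block 1 probe set of Psma2 also passed late (adjusted p = 0.0397, against 0.0749 without it).

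In the beta ring, 2 of 8 probe sets fell late and none passed early. Psmb3, a beta subunit without proteolytic activity, had 2399 and 3544 at day 0, then 1482, 2119 and 1288 on days 1 to 3 of A and 1620 on day 2 of B. Late, it had 1525, 942, 779 and 738 in A and 1698 in B, 2.73-fold lower (log2 change -1.45, SE 0.34, adjusted p = 0.00904 in limma). On this probe set, c76949_rc_s_at, day 0 lay above all early and late arrays, while the early and late arrays overlap. A second probe set of Psmb3 was 1.33 log2 lower late and did not pass (adjusted p = 0.0627 in limma). On that one, day 0 of A (536) was below day 1 of A (559). Psmb2, also without a proteolytic site, fell from 1843 and 2113 to 1081, 915, 1317 and 1103 in A and 1281 in B, a fold of 1.75 (adjusted p = 0.0281 in limma). Of the catalytic subunits on the arrays, Psmb6, which carries the caspase-like site, read 3702 and 3277 at day 0 and 2230, 2271, 2885 and 2634 in A and 1945 in B late, a difference of 1.47-fold that did not pass (adjusted p = 0.222 in limma). Psmb7, with the trypsin-like site, had 584 and 1747 at day 0 and late values of 285, 536, 501 and 571 in A and 1116 in B. The experiments lie so far apart that its late arrays overlap with day 0, and it did not pass (adjusted p = 0.315 in limma). Psmb5, the chymotrypsin-like subunit, was not analysed here. The probe sets of Psmb1 were at 0.42 and -0.12 log2 late against day 0, and neither passed. The first lay close to the floor, at 113 and 183 at day 0 (SE 0.39 log2). The second is of a kind shared by related transcripts. Both were named after their values were seen.

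**Figure D2:**
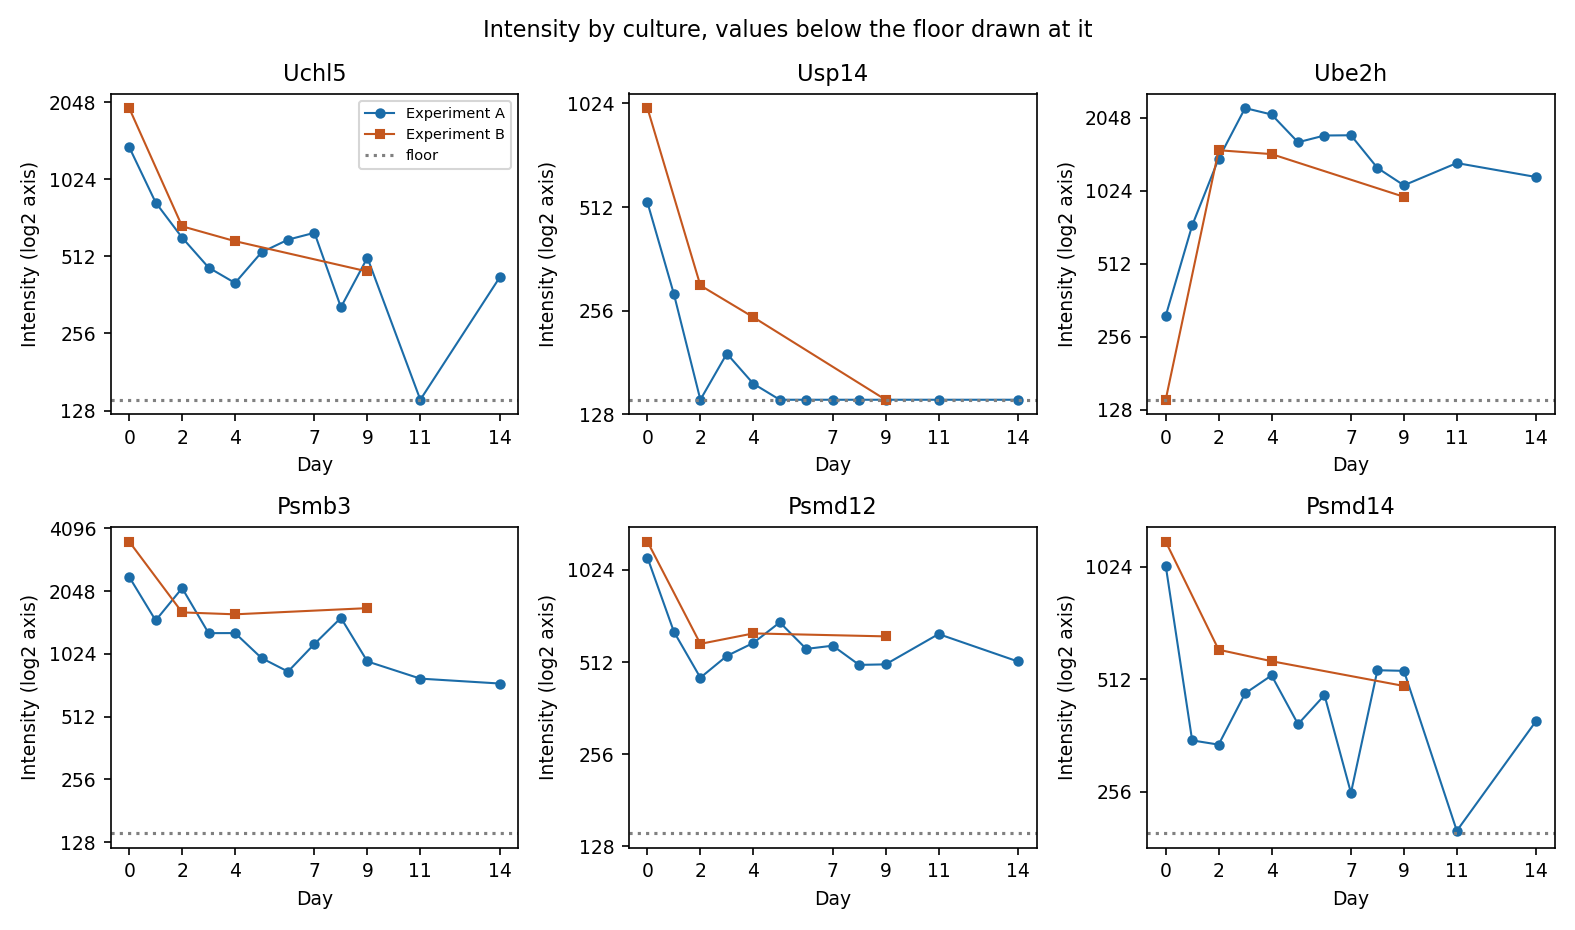
Intensity of 1 probe set each of Uchl5, Usp14, Ube2h, Psmb3, Psmd12 and Psmd14 (y axis, log2 spacing) against day (x axis) in experiment A (circles) and experiment B (squares); the dotted line is the floor and values below it are drawn there. In both experiments Uchl5, Usp14, Psmb3, Psmd12 and Psmd14 are highest at day 0, and Ube2h is lowest there.

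Of the 19S ATPases, 4 of 6 could be tested and Psmc4 alone passed. Psmc4 had 714 and 883 at day 0, 435, 260 and 316 on days 1 to 3 of A and 430 on day 2 of B, and 275, 372, 368 and 351 late in A with 386 in B. All later arrays were below both day 0 arrays, and the early and late levels were nearly equal, at folds of 2.26 and 2.28 below day 0. The late change passed (log2 change -1.19, SE 0.33, adjusted p = 0.0248 in limma). The early one did not pass (adjusted p = 0.0676 in limma), but passed with experiment as a block (0.0329), with the higher floor (0.0142) and with plain eBayes (0.0173). Psmc1 read 1063 and 1049 at day 0 and 486, 518, 861 and 377 in A and 489 in B late. This difference of 2.01-fold missed the threshold (adjusted p = 0.0596 in limma) and passed with the block (0.0327). For Psmc5, whose late values of 1524, 2226, 1664 and 2869 in A and 1292 in B overlap the 2754 and 2255 of day 0, no difference was resolved (adjusted p = 0.466 in limma). Psmc3 lay close to the floor throughout (log2 change -0.19, adjusted p = 0.547 in limma).

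Among the other cap subunits 5 of 15 tested probe sets fell late, and Psmd12 had already fallen early. Psmd12, a scaffold subunit of the lid, had 1124 and 1268 at day 0, 643, 455 and 536 on days 1 to 3 of A and 587 on day 2 of B. On late days it had 501, 503, 632 and 514 in A and 621 in B. The level thus went down once and stayed, 2.17-fold below day 0 both early (adjusted p = 0.0209 in limma) and late (adjusted p = 0.00705 in limma; SE 0.26 log2 each time). A second probe set of Psmd12 was above the floor on 1 array and was not tested.

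Psmd14, the metalloprotease of the lid that cuts ubiquitin chains off substrates as they enter, read 1032 and 1196 at day 0 and 541, 539, 201 and 396 in A and 491 in B late. It fell 2.72-fold late (adjusted p = 0.0363 in limma). Its early values, 351, 342 and 469 in A and 614 in B, were 2.58-fold below day 0 but did not pass (adjusted p = 0.114 in limma). With the higher floor (90th percentile) the early change passed, at 2.44-fold (adjusted p = 0.00629 in limma). Psmd6 fell on 1 of 2 probe sets, from 589 and 972 to 361, 407, 428 and 297 in A and 357 in B, 2.06-fold (adjusted p = 0.0293 in limma). Psmd8, a lid subunit, fell 2.35-fold on the larger of its 2 called changes (adjusted p = 0.0408 in limma), from 1385 and 1764 to 636, 756, 525 and 541 in A and 957 in B. That call of Psmd8 held in 13 of 24 alternatives; over the time course it passed with experiment as a block (adjusted p = 0.0523 without and 0.0201 with it). By contrast Psmd4, a ubiquitin receptor of the cap, had 2885 and 2483 at day 0 and 1973, 2103, 2475, 2202 and 1886 late, a 1.26-fold difference that did not pass (adjusted p = 0.398 in limma). The probe sets of Psmc3ip, which the symbol rule also picked up, encode a recombination factor and no proteasome subunit. Neither passed, but with experiment as a block 1 of them did, late (adjusted p = 0.323 without and 0.0162 with it) and over the time course (0.477 and 0.00588).

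**Figure D3:**
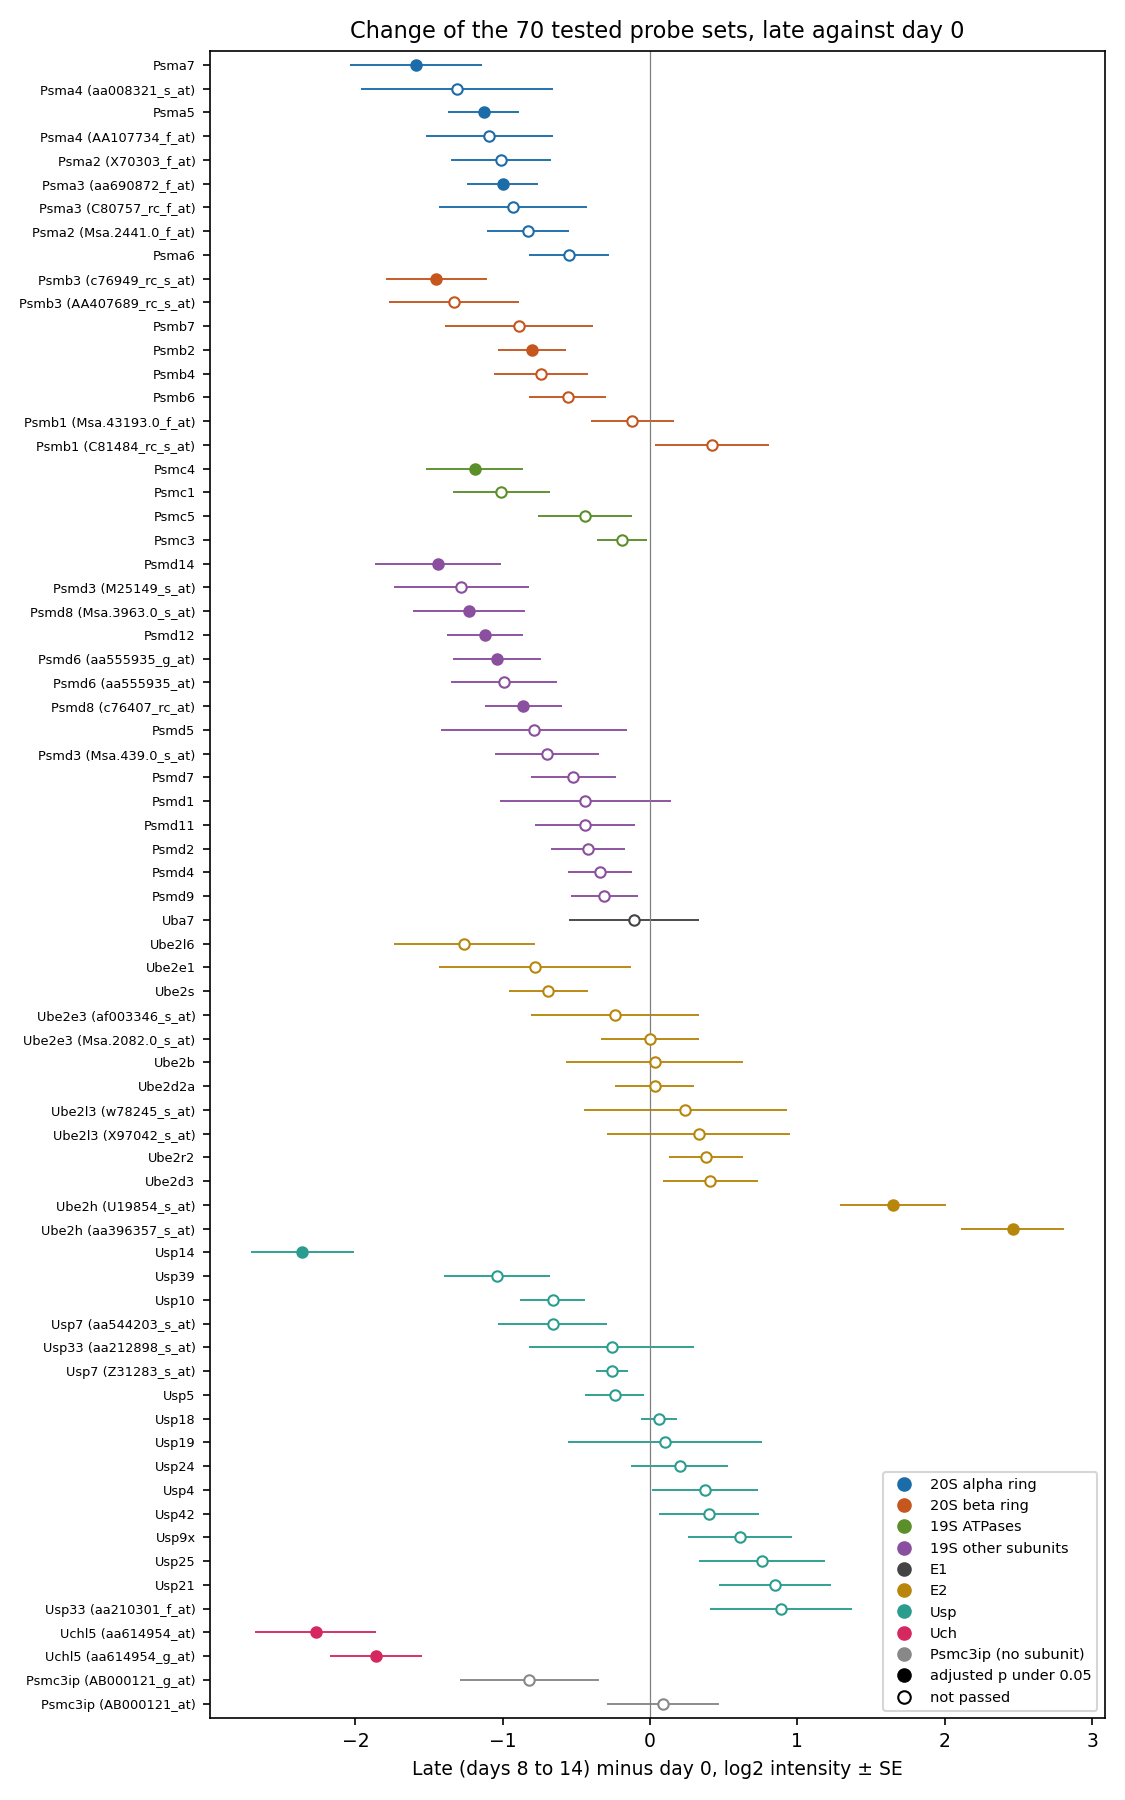
Log2 intensity late minus day 0 (x axis, bars are the standard error of the limma fit) for each of the 70 tested member probe sets (y axis), coloured by class; filled points passed an adjusted p of 0.05. Proteasome subunits lie to the left of 0 with the exception of 1 Psmb1 probe set, at 0.42, while the E2 and Usp enzymes spread to both sides, from -2.36 for Usp14 to 2.46 for Ube2h.

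The cap's cysteine deubiquitinases showed the largest drops of all members. Uchl5, which is recruited to the cap and trims ubiquitin chains, had 1368 and 1943 at day 0 on the probe set aa614954_at, 831, 606 and 463 on days 1 to 3 of A and 671 on day 2 of B. In the middle days it had 403, 531, 595 and 633 in A and 587 in B, and late 324, 506, 114 and 424 in A and 447 in B. It was below day 0 on every later array and fell 4.83-fold late (log2 change -2.27, SE 0.41, adjusted p = 0.00116 in limma), with a low point at day 11 of A. The early difference of 2.59-fold did not pass on this probe set (adjusted p = 0.0898 in limma). It passed with the higher floor (90th percentile, adjusted p = 0.0155 in limma) and without day 11 of A (0.0203).

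The probe set aa614954_g_at of Uchl5 went from 440 and 657 at day 0 to 244, 66 and 165 in A and 233 in B early, and to 98, 158, 18, 16 and 160 late. It fell 2.82-fold early (adjusted p = 0.0113 in limma) and 3.63-fold late (adjusted p = 0.000668 in limma), low estimates because several of these arrays were at the floor. With a floor at the 90th percentile the late fold was 1.98. The 2 probe sets are named after the same transcript record, so they are not independent.

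Usp14, which binds the cap and trims ubiquitin chains before degradation, had 528 and 993 at day 0. On days 1 to 3 of A it had 286, -14 and 192 and on day 2 of B 303, and from then on it faded into the background, with late values of 55, 120, -14 and 113 in A and -9 in B. It was 3.29-fold lower early (adjusted p = 0.00979 in limma) and at least 5.14-fold lower late (adjusted p = 0.000196 in limma). All late arrays were at the floor, so the size depends on it: the late fold was 8.90 with the lower floor (50th percentile) and 2.67 with the higher one. With the lower floor neither Usp14 nor aa614954_g_at of Uchl5 passed early (adjusted p = 0.169 and 0.172 in limma). The late calls of Usp14, of both Uchl5 probe sets and of the Ube2h probe set aa396357_s_at held in every alternative that could be run for them.

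Of the activating enzymes, Uba7, which activates the ubiquitin-like modifier Isg15, alone could be tested, on 1 of its 2 probe sets. It had 426 and 219 at day 0 and 413, 276, 307 and 372 in A and 117 in B late, with no difference resolved (log2 change -0.11, SE 0.44, adjusted p = 0.930 in limma). Experiment B was low on every day. Uba1, the main ubiquitin E1, with Uba2 and Uba3, was not analysed here.

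Among the conjugating enzymes, 2 of 13 tested probe sets passed, both for Ube2h and both higher. Ube2h is an E2 that works with the CTLH ligase complex and is known from maturing red cells. Its probe set aa396357_s_at had 312 in A and 17 in B at day 0. In A it read 736, 1386 and 2240 on days 1 to 3, 2108, 1620, 1727 and 1731 on days 4 to 7, and 1270, 1077, 1330 and 1165 on days 8 to 14; in B it read 1502, 1448 and 966 on days 2, 4 and 9. It thus climbed to a peak at day 3 and eased off, staying above day 0 on every later array. It rose 6.49-fold early (log2 change 2.70, SE 0.37, adjusted p = 0.0003 in limma) and 5.50-fold late (log2 change 2.46, SE 0.35, adjusted p = 0.000164 in limma), low estimates because day 0 of B was at the floor. In experiment A alone the early fold was 4.22.

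A second probe set of Ube2h, U19854_s_at, had 88 and 82 at day 0, both below the floor. Early it had 257, 450 and 601 in A and 648 in B, and late 644, 396, 401 and 405 in A and 408 in B. It rose at least 3.27-fold early (adjusted p = 0.0120 in limma) and at least 3.14-fold late (adjusted p = 0.00496 in limma). Both calls ended with the higher floor (90th percentile), where the folds were 1.72 and 1.63. The other 11 tested E2 probe sets did not pass. Over the 12 E2 probe sets with a mean above the floor the late median was 0.14 log2, and 5 were below day 0.

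Ube2l6, the E2 for Isg15, differed by experiment. In A it had 259 at day 0 and -17, 122 and 130 on days 1 to 3, and late 178, 109, 24 and 178; in B it had 788 at day 0 and 288, 333 and 377 on days 2, 4 and 9. It was below day 0 on every later array of each experiment, but the later arrays of B lie above day 0 of A. In the main fit it did not pass (late log2 change -1.26, SE 0.48, adjusted p = 0.110 in limma). With experiment as a block it passed early (adjusted p = 0.00686 in limma) and late (0.0123). Of the alternatives without the block that kept both day 0 arrays, 1 gave a call, late and without day 9 of B (adjusted p = 0.0345 in limma). The fits with 1 day 0 array are given by size alone. In experiment A alone Ube2l6 was 1.84-fold lower early and 1.63-fold lower late. Without day 0 of A it was 4.67-fold lower early and 4.18-fold lower late. Of its arrays, 3 of 4 early and 2 of 5 late ones were at the floor, and such ties make p-values too small. Its probe set is one shared by related transcripts. Ube2m and Ube2n were not analysed here.

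The ubiquitin-specific proteases other than Usp14 gave no call in the comparisons of phases, except that Usp39 passed as lower late with experiment as a block (adjusted p = 0.0782 without and 0.0244 with it). Of 16 tested Usp probe sets 10 had a mean above the floor, with a late median of 0.28 log2, near the 0.21 of all probe sets. Usp18, which removes Isg15, was near or below the floor on all days (36 and 135 at day 0, -16 to 176 late; adjusted p = 0.801 in limma). Isg15 itself, a gene outside these families, fell from a mean of 383 at day 0 to 210 late (adjusted p = 0.0017 in limma), with 4 of 5 late arrays at the floor. Usp25 passed the spline test over all days (adjusted p = 0.000391) although it was above the floor on 3 arrays alone, at 160, 497 and 550 on days 1, 11 and 14 of A. Its values in B, from -130 to -22, were below the floor throughout, so the call has no counterpart there.

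**Figure D4:**
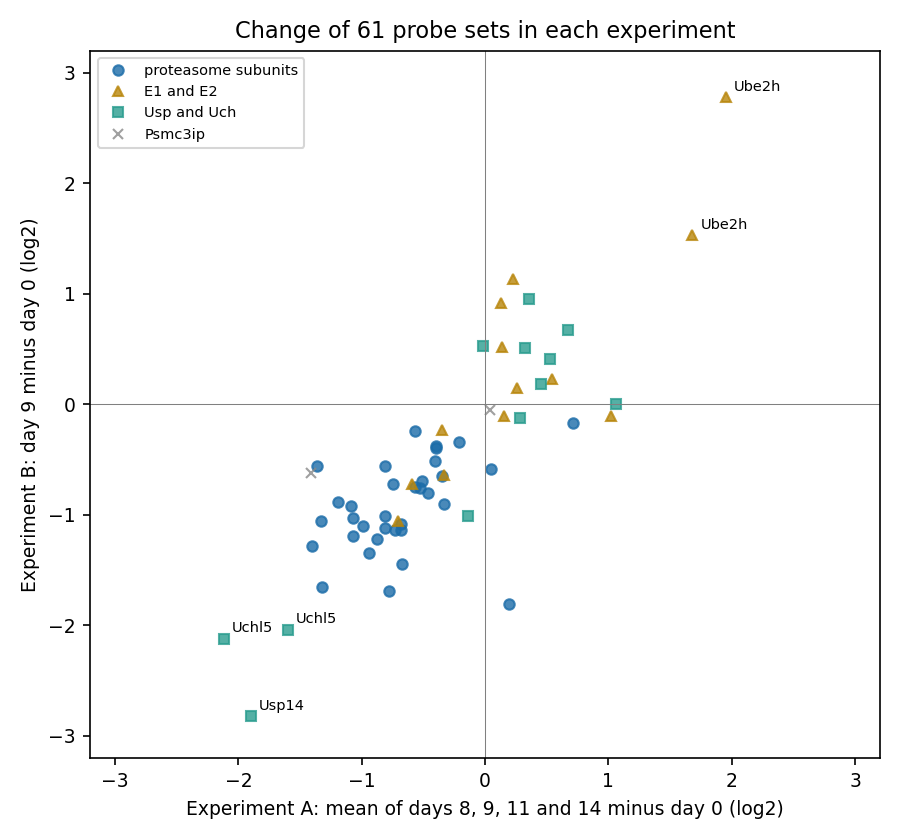
Change of the 61 member probe sets with a mean above the floor in experiment A (x axis, mean of 4 late days minus day 0, log2) and experiment B (y axis, day 9 minus day 0, log2). Proteasome subunits (circles) gather in the lower left, Uchl5 and Usp14 lie beyond them and Ube2h lies furthest to the upper right, at late folds of 3.87 and 6.85 in A and B for its probe set aa396357_s_at.

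The changes can also be given within each experiment for some of the members called late, which were picked on both together. Against its own day 0, Usp14 was at least 3.74-fold lower late in A and 7.04-fold in B. The Uchl5 probe set aa614954_at was 4.35-fold lower in each. Psmd12 was 2.10-fold lower in A and 2.04-fold in B, Psmd14 2.64-fold and 2.44-fold, and Psma7 2.49-fold and 3.13-fold. Each experiment gives 1 day 0 array, so these values carry no test of their own. Experiment B has a larger share of the 2 day 0 arrays than of the 5 late ones. A level difference between the experiments therefore enters the folds of the main fit. There aa614954_at of Uchl5 was 4.83-fold lower, Psmd14 2.72-fold and Psmd12 2.17-fold, each more than in either experiment. Usp14 (at least 5.14-fold) and Psma7 (3.02-fold) lay between their values in A and B.

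Other genes of the pathway moved in part alongside the members. Of 91 listed genes 48 were on the arrays, with 58 tested probe sets, of which 2 passed as higher and 8 as lower late, and 3 and 7 early; the shares over all tested probe sets were 4.84% and 6.08% late and 1.45% and 2.05% early. The immunoproteasome subunits and proteasome activators made up 6 of the 8 late drops, out of 7 tested probe sets. Early, 5 of the 7 fell, and 6 with experiment as a block, which added a probe set of Psmb9 (adjusted p = 0.0523 without and 0.0331 with it). Among them Psme1, a subunit of the activator that opens the core, fell from a mean of 2180 at day 0 to 894 early and 782 late (2.43-fold and 2.78-fold, adjusted p = 0.0163 and 0.00177 in limma). The assembly chaperones and ubiquitin receptors had 1 call in 9 tested probe sets, Psmg4, 2.55-fold lower early (adjusted p = 0.0239 in limma). The signalosome, a relative of the lid, and the other listed deubiquitinases had none in 8. The list of ligases and their parts had 3 calls against day 0 in 22 tested probe sets. These were 2 higher early for Mdm2 and 1 lower late for Ube2c, which is an E2 and no ligase. With the block Siah1a, a ligase, also passed as higher late (adjusted p = 0.0761 without and 0.0109 with it).

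The factors known to raise proteasome genes went up while the subunits were lower. Nfe2l2 had a mean of 239 at day 0, 755 early, 1070 in the middle days and 1540 late; it rose 3.16-fold early (adjusted p = 0.00329 in limma) and 6.45-fold late (adjusted p = 1.22e-05 in limma). Nfe2l1 rose from 512 to 1360 late, 2.66-fold (adjusted p = 0.00987 in limma), and had 828 early, which did not pass (adjusted p = 0.440 in limma). These are transcript levels; the activity of either factor was not measured.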

How the data were processed

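Total RNA was hybridised to 2 array designs with 16 arrays each. The deposited intensities are linear values scaled by the authors; 22.9% (design a) and 33.0% (design b) of them are negative, and the sources used here name no software. Symbols came from the platform annotation, and all 64 member symbols matched RefSeq. For each design, negative values were taken without sign and their 75th percentile served as the floor; log2 was taken after flooring. Testing required 2 or more of 16 arrays over the floor (4294 on design a, 3432 on design b; 61 controls per design were left out). The tests used limma 3.58.1 (R 4.3.3; lmFit and a trended, robust eBayes) per design, with 12 residual degrees of freedom, Benjamini-Hochberg adjustment over both designs and two-sided tests. The time course test was on a natural spline of day (3 degrees of freedom). The code was tested on simulated data.

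A fold against a group wholly at the floor is a lower bound; where only some of its arrays were, it is a low estimate, and arrays tied at the floor make p-values too small. Fold changes are on the floored scale. Precision is limited by the number of arrays, 2 at day 0. Levels of different probe sets were not compared.

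A minus B differences on days 0, 2, 4 and 9 correlated between days (r from 0.326 to 0.702 over 6 pairs), so cultures are paired by experiment; a fit with that block is quoted where it changes a call between phases. Alternatives were other floors and filters, quantile normalization, plain eBayes, experiment A alone and leaving out each culture. Members named with values were, per comparison, up to 12 called with the largest change in each direction (for the time course the smallest p), and a list of catalytic subunits, ATPases, E1 and E2 enzymes and deubiquitinases. Members, lists and rule were chosen with earlier results of these data known.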

Additional observations from a re-analysis of the deposited data

Results flagged for a closer look

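Among 76 groups of 4 or 5 arrays of the named probe sets, 13 had an array set apart from the rest on the floored scale. In several of them all other arrays were tied at the floor, so that any array above it was set apart. The count therefore cannot be compared with a rate given by chance. In 7 of these an array of experiment B read highest in its group. For Ube2l6 this held in each phase, at 288 on day 2 (the others -17 to 130), 333 on day 4 (8 to 93) and 377 on day 9 (24 to 178). The same was seen on day 4 for the Uchl5 probe set aa614954_g_at, at 257 (98 to 163), and for Usp14, at 245 (-126 to 157).

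Close to the floor, Psmc3 read 179 on day 9 of B (the others 88 to 139). Usp18 read 158 on day 1 and 180 on day 5 of A and 176 on day 9 of B, against -22 to 96 in the rest of those phases. Usp25 read 160 on day 1 of A, against -302 to -114. Above the floor, Psmc1 read 989 on day 6 of A (497 to 601), the array set with the high Gapdh ratio, and without that day its late difference from day 0 passed (adjusted p = 0.0396 in limma). On day 8 of A, Psmc4 read 275 (351 to 386) and the second Ube2h probe set 644 (396 to 408).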

How the results depend on the processing

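With experiment as a block, pairing the samples, 7 members passed early, 21 late, 0 late against early and 18 over the time course, against 5, 16, 0 and 12 without it; the calls between phases that it changed are given above, and over the time course it added probe sets of Psmc3ip, Psmd8 (both), Ube2b, Ube2s and Usp39. The early count was 3 with the floor at the 50th percentile and 8 at the 90th. Experiment A alone gave 6 late calls and 6 over the time course, and ended the late calls of the named probe sets of all 10 subunit genes (adjusted p from 0.0592 to 0.319 in limma). Leaving out 1 culture at a time gave 1 to 7 early, 4 to 18 late and 3 to 14 over the time course; the time course count was 7 without day 0 of A, and the lowest counts were without day 0 of B. That left day 0 with 1 array, assumed to vary like the other phases. It ended the late calls of Psma3, Psma5, Psma7, Psmb2, Psmb3, Psmc4, Psmd6, Psmd8, Psmd12 and Psmd14 (adjusted p from 0.0989 to 0.456 in limma), with log2 changes from -0.68 to -1.34, and that of U19854_s_at of Ube2h (0.0525). Early, it ended the calls of Psmd12 (0.192), Uchl5 (0.144), Usp14 (0.169) and U19854_s_at of Ube2h (0.0991). Without day 0 of A, Psmb2, Psmc4, Psmd8 and Psmd14 did not pass late (0.0656 to 0.109), nor Psmd12 (0.0679) and U19854_s_at of Ube2h (0.0628) early. Single late cultures of A ended the late calls of Psma7 (0.0526 without day 8, 0.0519 without day 14), Psmb2 (0.0636 without day 9), Psmd14 (0.0626 and 0.0619 without days 11 and 14) and Psmd6 (0.0576 without day 14), and each of 6 middle or late cultures of A ended that of Psmd8 (0.0514 to 0.0799). Without a filter Psma7, Psmd8 and Psmd14 did not pass late (0.0676 to 0.0927), and after quantile normalization Psmb2 and Psmd8 did not (0.0517 and 0.0598). The late against early count was 0 in all 24 alternatives. The median difference between experiments was 0.29 with the higher floor, against 0.40. No value of a named member or class reversed its called direction. Of the values of single members and classes under alternatives, 1202 stayed on their side of the threshold or within the spread, 54 lost and 18 gained a call, and 8 moved.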
